A study of Homo sapiens with 28 samples.

Results

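Base excision repair removes damaged bases from DNA and fills the gap, and the replicative polymerases copy the genome in S phase. The 36 genes described here encode 23 proteins of the former and 13 of the latter. The clamp PCNA and the flap nuclease FEN1 serve both processes and are counted as replicative. The ligase LIG1 also serves both and is counted with base excision repair. All 36 genes were taken by gene symbol from the table of gene counts, which has 58278 rows. Each passed the filter on low counts in the tumors, in the cultures and over all libraries. The levels of each gene are given over 8 conditions, 4 in tumors and 4 in cultures.

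All libraries come from xenografts of HCT116, an established human colorectal carcinoma line, here carrying luciferase and GFP. The cells were injected under the skin of male NOD SCID mice of 5 weeks, which lack functional T and B cells. The mice received by daily oral gavage for 23 days the vehicle (Control, 3 tumors), the CDK4 and CDK6 inhibitor Palbociclib at 100 mg/kg/day (5 tumors), the glutaminase inhibitor Telaglenastat at 150 mg/kg/day (4 tumors), or both drugs at these doses (combination, 4 tumors). The sample labels spell the second drug Telaglenestat. The tumor libraries are of resected tumors, which can also hold mouse cells. The cultures, 3 for each of the 4 treatments, were grown without drug from cells of the residual tumors, and the labels do not tie a culture to a tumor, so cultures and tumors were not paired. By the study's account each of the 12 cultures was grown from a residual tumor of its own.

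In base excision repair a glycosylase cuts out the damaged base, an AP endonuclease opens the strand, a polymerase fills the gap and a ligase seals it. Poly(ADP-ribose) polymerases bind the open strand and the scaffold protein XRCC1 holds the later enzymes together. In replication, polymerase alpha with primase starts each strand, polymerase epsilon extends the leading strand, and polymerase delta with the clamp PCNA extends the lagging strand, whose fragments FEN1 trims and LIG1 joins. Many replication genes are transcribed at the start of S phase by E2F factors, which the retinoblastoma protein holds back until CDK4 and CDK6 phosphorylate it. Most base excision repair genes are expressed in cycling and resting cells alike.

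Promoters were searched for E2F-type sequences because of this link. RefSeq promoters on GRCh38.p14, from 250 bases before to 50 after each gene's start, were found for 32 of the 36 genes, and NEIL2, SMUG1, POLB and POLD3 had no entry. The motifs TTTGGCGC, TTTCCCGC, TTTGGCGG and TTTCGCGC were read on both strands. At least 1 of them stood in 7 of the 32 promoters (21.9%), against 1177 of all 35116 promoters (3.35%) and 572 of the 10124 promoters of genes tested in tumors (5.65%). The 7 were LIG1 of the base excision repair genes and PCNA, POLA1, POLA2, POLE, POLE2 and POLE4 of the replicative genes, and their stretches with the match in capitals are shown 5′ to 3′ on the strand of the gene:
PCNA: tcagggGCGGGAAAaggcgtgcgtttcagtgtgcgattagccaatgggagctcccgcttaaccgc
LIG1: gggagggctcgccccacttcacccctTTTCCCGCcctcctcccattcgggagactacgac
POLA1: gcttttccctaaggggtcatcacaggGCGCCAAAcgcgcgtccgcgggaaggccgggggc
POLA2: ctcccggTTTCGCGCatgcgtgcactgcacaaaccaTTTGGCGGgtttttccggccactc
POLE: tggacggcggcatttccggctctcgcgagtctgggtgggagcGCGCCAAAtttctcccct
POLE2: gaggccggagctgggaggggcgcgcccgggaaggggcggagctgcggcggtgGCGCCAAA
POLE4: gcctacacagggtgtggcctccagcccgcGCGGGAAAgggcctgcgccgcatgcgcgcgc

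These stretches lie at chr20:5126623-5126687 (PCNA, minus strand), chr19:48170425-48170484 (LIG1, minus strand), chrX:24693755-24693814 (POLA1, plus strand), chr11:65261902-65261961 (POLA2, plus strand), chr12:132687343-132687402 (POLE, minus strand), chr14:49688212-49688271 (POLE2, minus strand) and chr2:74958583-74958642 (POLE4, plus strand). The capitals read the motif itself or its reverse complement, and POLA2 holds 2 motifs. A second motif, TTTGAA on both strands, which is the core of the element of genes expressed in G2 and M phase, stood in 3 of the 32 promoters (9.38%), those of NEIL3, XRCC1 and TDP1, against 15.2% of all promoters and 9.48% of those of genes tested in tumors. None of the matches shown overlaps another. A match describes the letters of the window and is no measurement of binding.

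Total counts ranged from 6273834 to 10617936 in the 16 tumor libraries and from 7198540 to 13815675 in the 12 culture libraries. Levels are given in CPM, the count per gene scaled to library size, with sizes set by TMM over all 28 libraries. Fold changes are on the log2 scale and carry their standard error. Adjusted p-values come from the quasi-likelihood F-test of edgeR and were adjusted over all genes tested by Benjamini-Hochberg. A gene under the threshold of 0.05 is called. The libraries differed in how expression depended on GC content. Each gene's log2 level was taken as its deviation from the gene's mean over all tumors, or over all cultures. Slopes of this deviation on GC content are thus relative, and those of tumors and cultures cannot be compared. Per SD of GC content, the slope was 0.249 to 0.261 in the Control and 0.0959 to 0.366 in the Palbociclib tumors. It was -0.391 to -0.305 in the Telaglenastat and -0.288 to -0.161 in the combination tumors, and -0.136 to 0.426 over the cultures. A second fit with this trend and that of gene length removed from each library is called corrected and stands beside the results. Palbociclib tumor 2 (slope 0.0959, the others 0.318 or above) and Telaglenastat culture 2 (slope 0.426, the other 2 -0.0328 and -0.0181) stood apart from their groups.

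All 5 epithelial markers were detected in every library, and their summed level was 2619 to 3157 CPM in the Control, 2879 to 3990.1 CPM in the Palbociclib, 1553 to 1712 CPM in the Telaglenastat and 2253 to 2548 CPM in the combination tumors, and 1456 to 1999 CPM in the Control cultures. The summed level of 10 proliferation markers was 1504 to 1660.1 CPM in the Control, 708 to 1026 CPM in the Palbociclib, 1662 to 1888 CPM in the Telaglenastat and 679.6 to 1147 CPM in the combination tumors. Markers of stroma, endothelium and leukocytes, 15 genes, summed to 244 to 297, 204 to 289, 74.3 to 91.8 and 143 to 231 CPM in the same order and to 8.96 to 32.2 CPM in the Control cultures, with DCN, LUM and CDH5 at 0 in every Control tumor. In a xenograft these cells are of the mouse, whereas the counts are of human genes. The sums can hold reads of HCT116 or mouse reads that align to human genes. They do not measure the content of host cells. The part of all these markers in the results below was not tested. In these bulk libraries fewer cycling cells and less RNA per cell cannot be told apart.

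Levels per kilobase use the merged exons of all annotated transcripts, from 1471 bases in PCNA to 16609 in POLE. The order of the genes depends on this choice of length. In the Control tumors OGG1, the glycosylase for oxidized guanine, was lowest per kilobase at 1.07 ± 0.222 CPM per kilobase (SD, n = 3). The clamp PCNA was highest at 126 ± 7.97 CPM per kilobase. The main AP endonuclease APEX1 was next to PCNA (121 ± 7.46 CPM per kilobase), and these 2 do not differ beyond their spread. FEN1 (39.9 ± 2.53), PARP1 (39.8 ± 1.19), the uracil glycosylase UNG (36.4 ± 2.67) and POLE3 (35.8 ± 0.952 CPM per kilobase) followed, and the mean ± SD ranges of neighbours among these overlapped. At the low end stood NTHL1 (1.31 ± 0.487), NEIL1 (1.79 ± 0.423), MUTYH (1.83 ± 0.0186), POLE4 (2.01 ± 0.243), MPG (2.1 ± 0.316) and the catalytic subunit of polymerase delta, POLD1 (2.23 ± 0.174 CPM per kilobase), neighbours within their spread. The subunits of a complex were not level: per kilobase, POLD2 was at 18.2 ± 1.82 and POLE3 at 35.8 ± 0.952, while POLD1 and POLE (4.81 ± 0.269 CPM per kilobase) were lower.

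Over the 8 conditions APEX1 varied least, with group means from 178 to 227 CPM (1.28-fold), and SMUG1, TDP1, POLB and NEIL2 spanned 1.37- to 1.55-fold. POLD4 (6.08-fold), POLE2 (5.98-fold), PRIM1 (5.57-fold), POLD1 (4.96-fold) and NEIL3 (4.72-fold) varied most. POLE2, PRIM1 and NEIL3 had their lowest mean in the Palbociclib tumors and their highest in cultures, whereas POLD4 and POLD1 had their highest in the Control tumors.

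Palbociclib tumors were compared with Control tumors to see how these genes stood after CDK4 and CDK6 inhibition. Of the 36 genes, 9 were lower and 1 higher, against 3.6% lower and 2.55% higher of the 14848 genes tested. Replicative genes made up 6 of the 9, and the other 3 were the glycosylase NEIL3, the ligase LIG1 and PARP1. The 13 replicative genes had a median log2 fold change of -0.41 and 12 were below 0, while the 23 base excision repair genes had a median of -0.01 with 12 below 0, and the median of all genes tested was 6.72e-04. After correction 10 were lower and 1 higher (4.03% and 3.83% of all genes tested), with POLE added to the same 10 calls. As counted, 7 of the 9 lower genes were among the 18 with the lower GC content, and the higher gene was among the other 18. Over the 36 genes the log2 fold change had a Pearson correlation of 0.44 with GC content, and 0.35 after correction.

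NEIL3, a glycosylase that acts on single-stranded DNA and is expressed in S phase (chr4:177309836-177362943, plus strand), showed the largest fall. NEIL3 was at 18.5, 16.6 and 17.1 CPM in the Control tumors and at 8.16, 8.09, 9.3, 7.26 and 9.04 CPM in the Palbociclib tumors. The groups did not overlap, and the change was -1.05 ± 0.18 on the log2 scale (adjusted p = 9.42e-04). PRIM1 was at 34.9, 39.5 and 35.3 CPM in the Control tumors and at 23.5, 20.8, 16.8, 16 and 17.9 CPM in the Palbociclib tumors. This catalytic subunit of primase (chr12:56731596-56752373, minus strand) fell by 0.94 on the log2 scale (SE 0.14, adjusted p = 3.04e-04), again without overlap. POLE2 was at 12.7, 12.9 and 15.2 CPM in the Control tumors and at 8.79, 7.23, 7.4, 8.4 and 7.0 CPM in the Palbociclib tumors. Every Palbociclib tumor lay below every Control tumor for this accessory subunit of polymerase epsilon (chr14:49643555-49688422, minus strand), a change of -0.80 ± 0.16 on the log2 scale (adjusted p = 0.00422).

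PCNA was at 172, 194 and 189 CPM in the Control tumors and at 128, 106, 118, 97.4 and 106 CPM in the Palbociclib tumors. The clamp (chr20:5114953-5126626, minus strand) was lower in all 5 tumors than in any Control tumor, a change of -0.73 ± 0.08 on the log2 scale (adjusted p = 1.08e-05). FEN1 was at 92.2, 105 and 100.2 CPM in the Control tumors and at 79.6, 49.99, 62.1, 59.2 and 62.1 CPM in the Palbociclib tumors. The groups of this flap nuclease (chr11:61792637-61797244, plus strand) did not overlap either, with a change of -0.65 ± 0.11 (adjusted p = 5.50e-04). The other members that fell were POLD3, LIG1, POLA1 and PARP1, which are an accessory subunit of polymerase delta, the ligase of Okazaki fragments, the catalytic subunit of polymerase alpha and the main poly(ADP-ribose) polymerase. They changed by -0.65 ± 0.14 (POLD3, adjusted p = 0.00706), -0.59 ± 0.12 (LIG1, adjusted p = 0.0048), -0.58 ± 0.13 (POLA1, adjusted p = 0.0099) and -0.31 ± 0.07 (PARP1, adjusted p = 0.0067) on the log2 scale, and none overlapped with Control. POLA1 was no longer called without Control tumor 1 (adjusted p = 0.0594) and Control tumor 3 (adjusted p = 0.0582), nor POLD3 without Control tumor 3 (adjusted p = 0.0686).

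**Figure D1:**
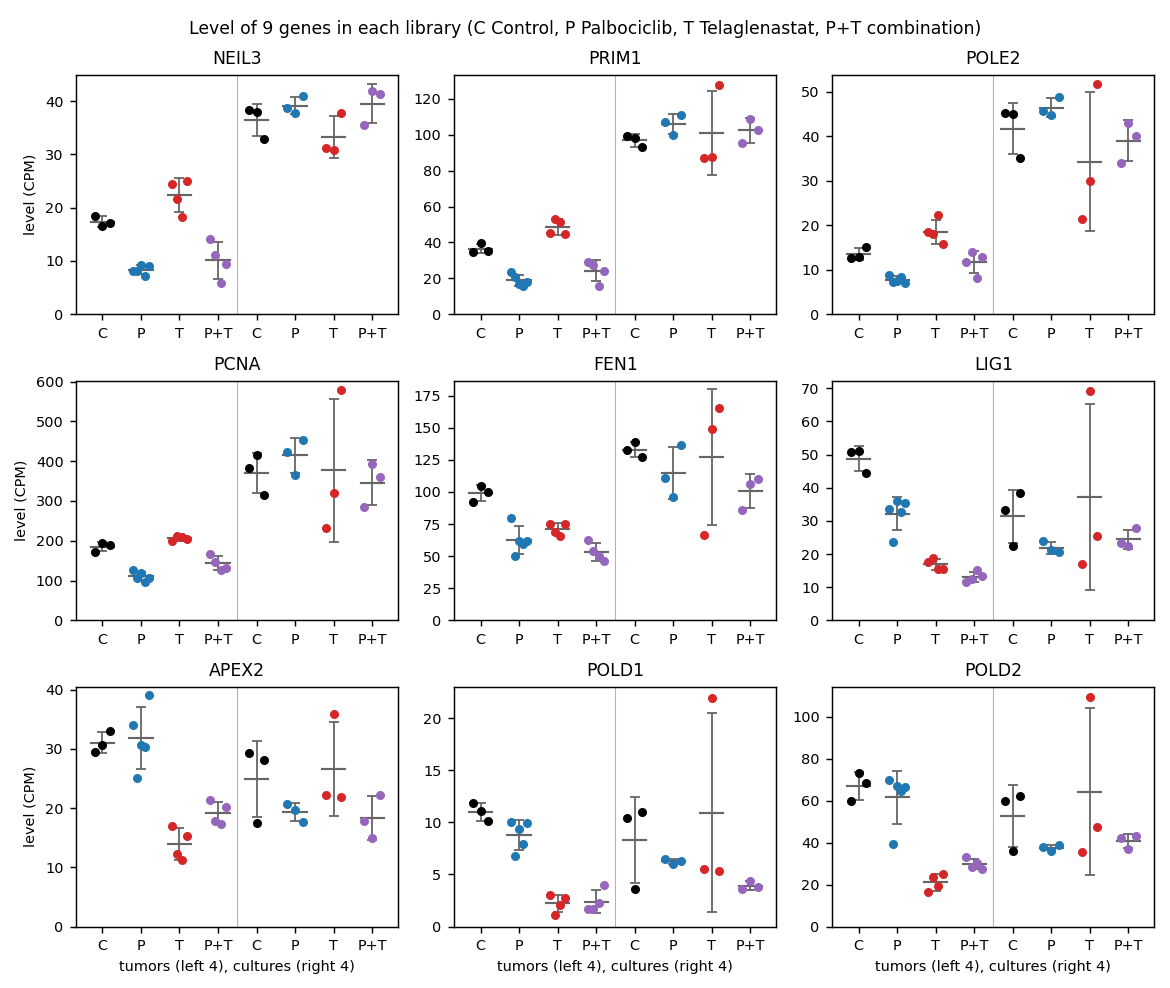
Level in CPM (y axis, from 0) of 9 genes in each of the 28 libraries, by condition (x axis: Control, Palbociclib, Telaglenastat, combination, in tumors on the left and cultures on the right). Points are libraries, horizontal lines are group means and bars are SD. The Palbociclib tumors lie below the Control tumors for NEIL3, PRIM1, POLE2, PCNA, FEN1 and LIG1, and every culture lies above every tumor for NEIL3, PRIM1 and PCNA.

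Not every subunit of a replicative polymerase moved. POLA2, POLD1 and POLE had all 5 Palbociclib tumors below the Control tumors but were not called, with values of -0.41 ± 0.15 (POLA2, adjusted p = 0.12), -0.32 ± 0.25 (POLD1, adjusted p = 0.577) and -0.37 ± 0.12 (POLE, adjusted p = 0.0643). POLE was called after correction (-0.41 ± 0.08, adjusted p = 0.0019). POLD2, POLD4, POLE3 and POLE4 had log2 fold changes of -0.12, -0.09, -0.03 and 0.01, with adjusted p from 0.757 to 0.995. Among the glycosylases only NEIL2 rose (0.30 ± 0.09, adjusted p = 0.048), with the Palbociclib tumors at 37.2, 39.9, 40.02, 39.1 and 39.7 CPM and the Control tumors at 32.3, 28.7 and 34.8 CPM, a call that was lost in 13 of 16 fits that left out 1 library (adjusted p 0.0503 to 0.273). The remaining 9 glycosylases had log2 fold changes between -0.15 and 0.16 and groups that overlapped. APEX1, APEX2, APTX and TDP1, which open the strand or clean its ends, lay between -0.11 and 0.04, and the gap-filling polymerases POLB (0.03 ± 0.11) and POLL (0.07 ± 0.14), XRCC1 (-0.25 ± 0.22), LIG3 (-0.21 ± 0.10), PARP2 (-0.01 ± 0.10) and PARP3 (0.28 ± 0.16) were not called.

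By promoter, 4 of the 7 genes with an E2F-type match were lower (LIG1, PCNA, POLA1 and POLE2, median log2 fold change -0.58), and 4 of the 25 without a match were (NEIL3, FEN1, PRIM1 and PARP1, median -0.07). After correction 5 of the 7 and 4 of the 25 were lower. All of the 7 but LIG1 are replicative genes, so promoter match and role overlap, and their parts were not tested apart. As counted, the replicative genes FEN1 and PRIM1 fell without a match, and POLA2, POLE and POLE4 held a match and were not called. POLD3, also lower, had no promoter entry and is left out of these counts. All 10 proliferation markers were lower in the same tumors (median -0.88). Leaving out Palbociclib tumor 2, the library with the shallow GC slope, gave 9 lower and 0 higher. By promoter, Telaglenastat tumors had 2 lower and 1 higher of the 7, and 13 lower and 4 higher of the 25, as counted. Corrected, these were 1 and 0 of the 7, and 3 and 3 of the 25. Combination tumors had 4 lower and 0 higher of the 7, and 16 lower and 2 higher of the 25, as counted. Corrected, these were 6 and 0, and 9 and 1. The shares of all genes tested are given below with each comparison.

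Telaglenastat tumors were compared with Control tumors in the same way, and the comparison shares its 3 Control tumors with the other drug comparisons. As counted, 16 of the 36 genes were lower and 5 higher, against 28.5% lower and 22.6% higher of all genes tested. The calls split by GC content. Of the 16 lower genes 14 were among the 18 with the higher GC content (median of the 36, 52.2%), and all 5 higher genes were among the 18 with the lower. Across the 36 genes the log2 fold change had a Pearson correlation of -0.89 and a Spearman correlation of -0.91 with GC content. Across all 14800 genes tested with a GC value the Pearson correlation was -0.69, given as a description since the genes share libraries. After correction 4 genes were lower and 3 higher (7.57% and 5.58% of all genes tested), and the correlation over the 36 genes was -0.37. Beyond this correction, the part of GC content in the calls was not tested.

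**Figure D2:**
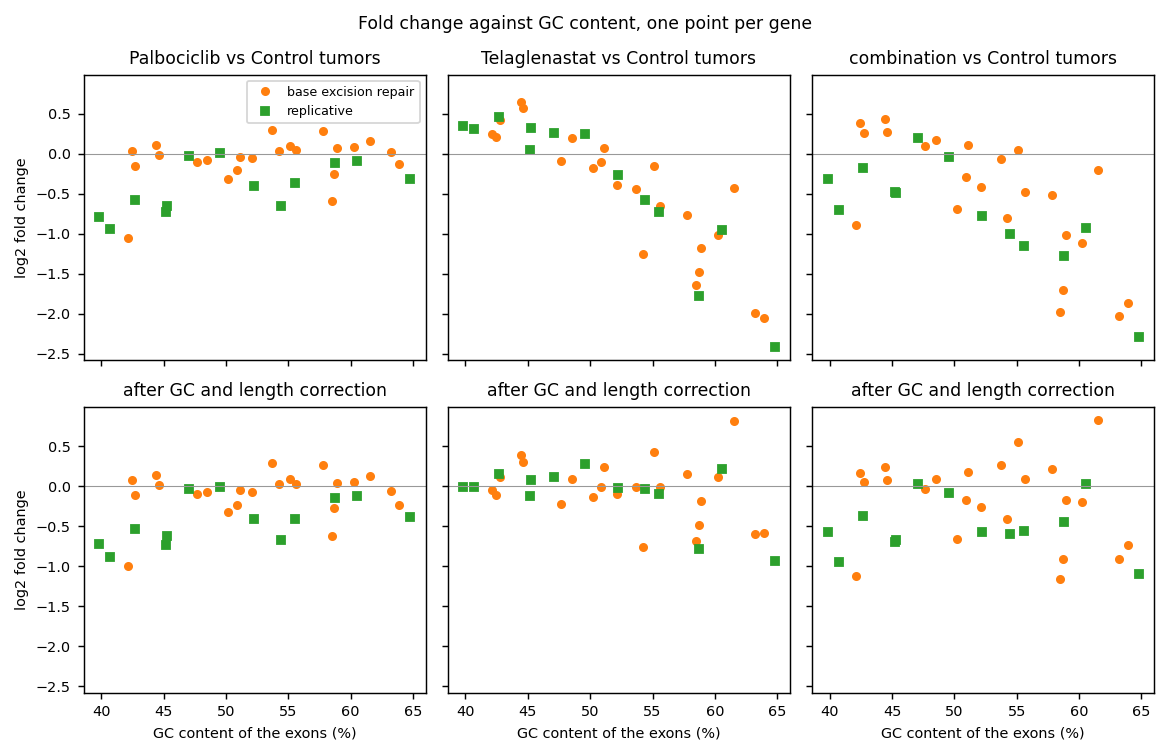
Log2 fold change (y axis) against the GC content of each gene's exons in percent (x axis) in Palbociclib, Telaglenastat and combination tumors compared with Control tumors, as counted (top) and after GC and length correction (bottom). Points are the 36 genes, base excision repair as circles and replicative as squares. As counted, fold changes fall with GC content in Telaglenastat (r = -0.89) and combination tumors (r = -0.69). They tend to rise with it in Palbociclib tumors (r = 0.44). After correction r is -0.37, -0.05 and 0.35 in the same order.

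As counted the largest fall was that of POLD1, followed by MPG and NTHL1, and after correction POLD1 and POLD2 fell most. POLD1 was at 11.8, 11.1 and 10.1 CPM in the Control tumors and at 3.02, 1.12, 2.04 and 2.7 CPM in the Telaglenastat tumors, where it rests on few reads. The catalytic subunit POLD1 (chr19:50384204-50418016, plus strand, GC content 64.8%, the highest of the 36) changed by -2.42 ± 0.30 on the log2 scale (adjusted p = 1.70e-06) without overlap. After correction the change was -0.93 ± 0.27 (adjusted p = 0.0244). POLD2 was at 59.9, 73.1 and 68.5 CPM in the Control tumors and at 16.3, 23.6, 19.3 and 24.9 CPM in the Telaglenastat tumors. For the second subunit, POLD2 (chr7:44114681-44124358, minus strand), the change was -1.78 ± 0.16 as counted (adjusted p = 4.61e-08) and -0.78 ± 0.13 after correction (adjusted p = 3.62e-04). The groups lay far apart. LIG1 was at 50.8, 51.2 and 44.4 CPM in the Control tumors and at 17.6, 18.8, 15.5 and 15.5 CPM in the Telaglenastat tumors. The ligase (chr19:48115445-48170603, minus strand) was thus below all Control tumors in each of the 4, by -1.64 ± 0.14 as counted (adjusted p = 2.46e-08) and -0.68 ± 0.10 corrected (adjusted p = 9.32e-05).

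The glycosylases MPG, which removes alkylated purines, and NTHL1, which removes oxidized pyrimidines, were both low in counts. MPG was at 3.14, 3.23 and 4.09 CPM in the Control tumors and at 0.754, 1.26, 0.627 and 0.901 CPM in the Telaglenastat tumors. NTHL1 was at 3.35, 4.28 and 1.93 CPM in the Control tumors and at 1.21, 1.12, 0.157 and 0.901 CPM in the Telaglenastat tumors. Neither overlapped with Control, and the changes were -2.06 ± 0.43 and -1.99 ± 0.51 on the log2 scale (adjusted p = 5.52e-04 and 0.00278). After correction they were -0.58 ± 0.40 and -0.60 ± 0.49, and neither was called (adjusted p = 0.414 and 0.499). APEX2, the minor AP endonuclease, was lower in both fits (-1.26 ± 0.15, adjusted p = 1.25e-06 as counted, and -0.75 ± 0.14, adjusted p = 7.74e-04 corrected).

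Called lower as counted but not after correction were, besides MPG and NTHL1, 10 more genes. Of base excision repair they were XRCC1 (-1.48 ± 0.24, adjusted p = 4.06e-05), POLL (-1.17 ± 0.16, adjusted p = 5.17e-06), MUTYH (-1.01 ± 0.27, adjusted p = 0.00343), NEIL2 (-0.44 ± 0.10, adjusted p = 6.75e-04) and APEX1 (-0.40 ± 0.08, adjusted p = 4.24e-04). Of the poly(ADP-ribose) polymerases and replicative genes they were PARP3 (-0.77 ± 0.17, adjusted p = 8.88e-04), PARP1 (-0.17 ± 0.07, adjusted p = 0.0476), POLD4 (-0.96 ± 0.28, adjusted p = 0.00803), POLE (-0.72 ± 0.12, adjusted p = 7.39e-05) and FEN1 (-0.58 ± 0.11, adjusted p = 2.78e-04). In this group MUTYH, PARP3 and POLD4 turned to the other side of 0 (0.12 ± 0.23, 0.16 ± 0.15 and 0.22 ± 0.28 corrected). PARP1 was no longer called in 7 of 16 fits without 1 library (adjusted p 0.0511 to 0.13).

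Higher in Telaglenastat tumors in both fits were MBD4, a glycosylase for thymine opposite guanine, and PARP2. MBD4 was at 16.7, 19.2 and 19 CPM in the Control tumors and at 32.4, 26.8, 32.7 and 31.8 CPM in the Telaglenastat tumors. PARP2 was at 39.4, 41.8 and 41.8 CPM in the Control tumors and at 59.4, 60.8, 68 and 73.6 CPM in the Telaglenastat tumors. Both had every Telaglenastat tumor above every Control tumor. The changes were 0.65 ± 0.12 and 0.57 ± 0.10 on the log2 scale (adjusted p = 1.95e-04 and 1.24e-04), and 0.40 ± 0.11 and 0.31 ± 0.09 after correction (adjusted p = 0.0245 and 0.0215). Called only as counted were TDG (0.43 ± 0.11, adjusted p = 0.00224), POLA1 (0.46 ± 0.14, adjusted p = 0.00846) and POLE3 (0.26 ± 0.09, adjusted p = 0.0156). POLA1 was not called without Control tumor 2 (adjusted p = 0.0534), nor POLE3 without Control tumor 3 (adjusted p = 0.0612). NEIL1 was called higher only after correction (0.81 ± 0.25, adjusted p = 0.0315, against -0.42 ± 0.26 as counted).

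Of the 9 genes that were lower in Palbociclib tumors, FEN1, LIG1 and PARP1 were also lower in Telaglenastat tumors as counted, and LIG1 after correction, while POLA1 was higher as counted, with the values given above. PCNA (0.05 ± 0.09), PRIM1 (0.30 ± 0.15), POLE2 (0.34 ± 0.17), NEIL3 (0.25 ± 0.19) and POLD3 (0.32 ± 0.15) were not called as counted or corrected, and their corrected values lay between -0.13 and 0.07. Between these 2 drugs the difference was not tested. OGG1, UNG, SMUG1, APTX, TDP1, POLB, LIG3, POLA2 and POLE4 were not called in either fit, with log2 fold changes from -0.65 ± 0.28 (OGG1) to 0.24 ± 0.26 (POLE4). Of the proliferation markers 3 were lower and 2 higher as counted, and none after correction. All 7 of the stroma, endothelium and leukocyte markers that could be tested were lower as counted, and 5 after correction. Of the 5 epithelial markers 3 were lower in both fits, and 1 was higher as counted.

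In combination tumors 21 of the 36 genes were lower than in Control tumors and 3 higher, against 26.9% and 17.6% of all genes tested. As counted, 14 of the 21 were in the upper 18 of GC content and all 3 higher genes in the lower 18, with a Pearson correlation of -0.69 and a Spearman correlation of -0.67 over the 36 genes. Corrected, 16 were lower and 3 higher (13.1% and 13% of all genes tested). The 16 comprised 10 of the 13 replicative genes, all but POLD4, POLE3 and POLE4, and 6 base excision repair genes, NEIL3, APEX1, APEX2, XRCC1, LIG1 and PARP1. The replicative genes had a median of -0.70 as counted and -0.57 corrected, the base excision repair genes -0.42 and -0.04, and all genes tested -0.04 and 0.0019.

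LIG1 was at 11.7, 12.6, 15.3 and 13.2 CPM in the combination tumors, below the 3 Control tumors given above. The change was -1.98 ± 0.14 on the log2 scale (adjusted p = 1.54e-08), and the corrected change of -1.16 ± 0.10 was the largest fall of the 36 (adjusted p = 2.65e-07). POLD1 was at 1.64, 1.65, 2.24 and 3.97 CPM in the combination tumors, without overlap with Control, at -2.29 ± 0.30 (adjusted p = 3.78e-06) and -1.09 ± 0.26 corrected (adjusted p = 0.00423). XRCC1 was at 23.2, 30.03 and 19.4 CPM in the Control tumors and at 4.76, 6.0, 11.6 and 9.13 CPM in the combination tumors. This scaffold protein of the repair complex (chr19:43543040-43580473, minus strand) lay below Control in all 4 (-1.70 ± 0.24, adjusted p = 1.19e-05) and after correction at -0.91 ± 0.21 (adjusted p = 0.00295).

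NTHL1 was at 1.15, 0.90, 0.281 and 1.03 CPM in the combination tumors and MPG was at 1.15, 0.45, 1.26 and 1.18 CPM in the combination tumors, below the Control tumors in every library. The changes were -2.02 ± 0.51 and -1.87 ± 0.43 on the log2 scale (adjusted p = 0.00299 and 0.00134). Corrected, they were -0.90 ± 0.49 and -0.74 ± 0.40, and neither was called (adjusted p = 0.195 and 0.189). PARP1 was at 208, 185, 185 and 181 CPM in the combination tumors against 276, 290.3 and 291 CPM in Control, a change of -0.69 ± 0.07 as counted and -0.65 ± 0.07 corrected (adjusted p = 3.03e-07 and 1.94e-06). The primase subunit PRIM1 was at 29.2, 27.5, 16 and 24.1 CPM and NEIL3 at 14.1, 11.1, 5.89 and 9.42 CPM, both below every Control tumor.

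After correction the other lower replicative genes were PRIM1 (-0.95 ± 0.14, adjusted p = 6.27e-05), PCNA (-0.69 ± 0.09, adjusted p = 7.41e-06), FEN1 (-0.59 ± 0.11, adjusted p = 4.67e-04), POLD3 (-0.67 ± 0.14, adjusted p = 0.00177) and POLA2 (-0.57 ± 0.16, adjusted p = 0.0100). To these came POLE2 (-0.57 ± 0.17, adjusted p = 0.0173), POLE (-0.56 ± 0.09, adjusted p = 7.04e-05), POLD2 (-0.45 ± 0.13, adjusted p = 0.0125) and POLA1 (-0.37 ± 0.13, adjusted p = 0.0472). Of base excision repair, NEIL3 and both AP endonucleases were lower, as NEIL3 (-1.12 ± 0.19, adjusted p = 1.92e-04), APEX2 (-0.41 ± 0.13, adjusted p = 0.0278) and APEX1 (-0.26 ± 0.07, adjusted p = 0.00932). Among them POLA1 and POLE2 were not called as counted, with values of -0.17 ± 0.14 (POLA1, adjusted p = 0.334) and -0.32 ± 0.17 (POLE2, adjusted p = 0.146). Called lower only as counted were MUTYH, NTHL1, MPG, LIG3, POLL, PARP3 and POLD4, of which PARP3 and POLD4 turned to 0.22 ± 0.15 and 0.03 ± 0.28. The higher calls differed between the fits. As counted they were MBD4 (0.44 ± 0.12, adjusted p = 0.00624), POLB (0.38 ± 0.11, adjusted p = 0.00883) and PARP2 (0.28 ± 0.10, adjusted p = 0.0331). After correction they were NEIL1 (0.83 ± 0.24, adjusted p = 0.0151), SMUG1 (0.55 ± 0.15, adjusted p = 0.0096) and NEIL2 (0.27 ± 0.09, adjusted p = 0.038). The higher count was 5 in place of 3 with DESeq2, with its size factors, without the filter and with the compared groups alone, and 1 with the replicate block and the correction.

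Leaving out 1 library ended the calls of POLD3 without Control tumor 3 (adjusted p = 0.0803), of POLD4 without Control tumor 3 (adjusted p = 0.0586) and of PARP3 without Control tumor 2 (adjusted p = 0.0561), Control tumor 3 (adjusted p = 0.0967) and combination tumor 1 (adjusted p = 0.0577). LIG3 lost its call without Control tumor 1 (adjusted p = 0.0703), Control tumor 3 (adjusted p = 0.139), combination tumor 1 (adjusted p = 0.0542) and combination tumor 2 (adjusted p = 0.0988), and PARP2 in 5 fits (adjusted p 0.0635 to 0.108). All 10 proliferation markers were lower in combination tumors (median -0.71 as counted, -0.94 corrected).

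**Figure D3:**
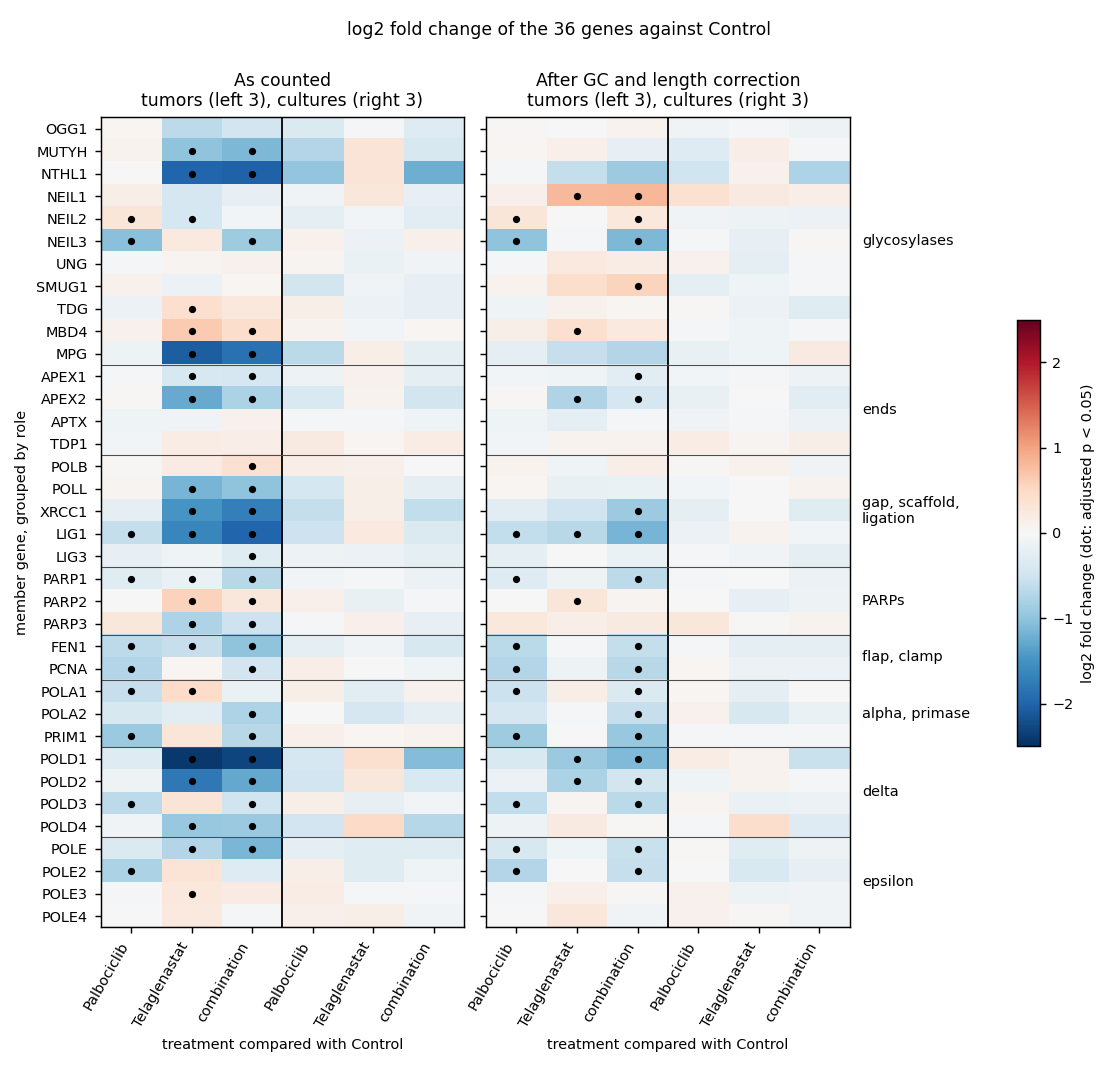
Log2 fold change against Control (colour, blue lower and red higher) of the 36 genes (rows, by role) for Palbociclib, Telaglenastat and combination (columns) in tumors and in cultures, as counted on the left and after GC and length correction on the right. Dots mark genes past the threshold of 0.05. In the tumors 10, 21 and 24 genes carry a dot as counted and 11, 7 and 19 after correction, and no gene does in the cultures.

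Against Palbociclib tumors, combination tumors had 17 genes lower and 10 higher as counted (27.5% and 20.1% of all genes tested), and 5 lower and 2 higher after correction (7.61% and 6.8%). The 17 and 10 split by GC content, 15 of the 17 lying in the upper 18 and all 10 in the lower 18 (Pearson correlation -0.90 over the 36 genes). The 5 corrected falls were all of genes counted with base excision repair, although LIG1 also serves replication. They were XRCC1 (-0.63 ± 0.19, adjusted p = 0.0299), LIG1 (-0.54 ± 0.10, adjusted p = 5.21e-04), APEX2 (-0.44 ± 0.12, adjusted p = 0.0161), PARP1 (-0.33 ± 0.06, adjusted p = 9.76e-04) and APEX1 (-0.19 ± 0.06, adjusted p = 0.0492). The corrected rises were NEIL1 (0.70 ± 0.21, adjusted p = 0.0296) and SMUG1 (0.46 ± 0.13, adjusted p = 0.0212). The corrected values of the replicative genes ran from -0.71 ± 0.25 (POLD1, adjusted p = 0.0568) to 0.16 ± 0.12 (POLA1). Without Palbociclib tumor 2, 17 members were lower and 11 higher as counted.

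As counted in that comparison, the falls not kept were MUTYH, NTHL1, NEIL2, MPG, POLL, PARP3, FEN1, POLA2, POLD1, POLD2, POLD4 and POLE, from -2.04 ± 0.47 (NTHL1) to -0.34 ± 0.10 (FEN1). The rises were TDG, MBD4, POLB, PARP2, PCNA, POLA1, POLE2, POLE3, APTX and TDP1, from 0.21 ± 0.08 (APTX) to 0.48 ± 0.16 (POLE2). FEN1 and POLD4 turned to 0.07 ± 0.10 and 0.14 ± 0.25. The calls of POLA1, POLA2, POLE2, POLE3, APTX and TDP1 were each lost in 1 to 6 fits that left out a library of the groups compared, POLA1 without combination tumor 1 (adjusted p = 0.080). The adjusted p went up to 0.144 for POLA2, 0.0725 for POLE2, 0.0693 for POLE3, 0.0852 for APTX and 0.125 for TDP1.

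Telaglenastat and combination tumors both had negative GC slopes, relative to the mean over all tumors, with group means of -0.342 and -0.21. Against Telaglenastat tumors, combination tumors had 11 genes lower and 3 higher as counted (9.89% and 8.93% of all genes tested). Of the lower genes 8 were in the lower 18 of GC content, and all 3 higher genes were in the upper 18. The Pearson correlation over the 36 genes was 0.58, and 0.33 after correction. After correction 11 were lower and 1 higher (7.07% and 8.56%). Of the 11, 10 were lower in both fits. The largest were NEIL3 (-1.15 ± 0.18, adjusted p = 2.03e-04), PRIM1 (-1.01 ± 0.14, adjusted p = 5.73e-05), POLD3 (-0.81 ± 0.14, adjusted p = 4.40e-04), POLE2 (-0.66 ± 0.16, adjusted p = 0.00646) and POLA1 (-0.64 ± 0.13, adjusted p = 0.00166). Smaller falls were PARP1 (-0.52 ± 0.07, adjusted p = 1.96e-05), PCNA (-0.52 ± 0.08, adjusted p = 1.32e-04), POLA2 (-0.51 ± 0.15, adjusted p = 0.0245), POLE (-0.43 ± 0.12, adjusted p = 0.0188) and FEN1 (-0.42 ± 0.11, adjusted p = 0.0117). LIG1 was added by the correction (-0.48 ± 0.11, adjusted p = 0.00354) and PARP2 dropped out. NEIL2 was higher in both fits (0.38 ± 0.09, adjusted p = 0.0056 as counted), while as counted 2 more rose, APEX2 (0.46 ± 0.15, adjusted p = 0.0374) and POLD2 (0.51 ± 0.16, adjusted p = 0.0321).

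In the tumors given both drugs NEIL3 was at 14.1, 11.1, 5.89 and 9.42 CPM and PRIM1 at 29.2, 27.5, 16 and 24.1 CPM, against 24.4, 21.6, 18.2 and 25.1 and 45.1, 53.3, 51.2 and 44.9 CPM in the Telaglenastat tumors, without overlap. Replicative genes were 8 of the 11 lower genes as counted, with a median of -0.43 over the 13, against -0.02 over the 23 base excision repair genes. Calls of APEX2, POLD2 and POLA2 were each lost in 4 fits without 1 library (adjusted p up to 0.122, 0.106 and 0.0966), of POLE in 3 (up to 0.0631) and of PARP2 in 5 (up to 0.134).

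In the cultures, which grew without drug, no member was called after either drug or both, by edgeR or by DESeq2. Of all 13985 genes tested edgeR called 0% in either direction with each single drug, and 0.00715% lower and 0% higher with both. An unadjusted p under 0.05 was found for 1 member in Palbociclib, 0 in Telaglenastat and 1 in combination cultures. Leaving out Telaglenastat culture 2 also gave 0 calls. The lowest adjusted p over the 36 genes was 0.795 (OGG1), 0.769 (POLA1) and 0.681 (NTHL1). Standard errors were wider than in the tumors, with a median of 0.22 for Palbociclib against 0.14 in the tumors.

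The genes that fell in Palbociclib tumors stood in Palbociclib cultures at 0.10 ± 0.13 (NEIL3), 0.13 ± 0.14 (PRIM1), 0.15 ± 0.24 (POLE2), 0.16 ± 0.25 (PCNA) and -0.22 ± 0.25 (FEN1) on the log2 scale. NEIL3 was at 38.6, 37.8 and 41 CPM in the Palbociclib cultures and 38.3, 38 and 32.9 CPM in the Control cultures, and the groups overlapped. PRIM1 was at 107, 99.9 and 111 and 99.4, 98.2 and 92.9 CPM. In the Telaglenastat cultures PCNA spread from 233 to 578 CPM, and LIG1, POLD1 and POLD2 were high in culture 2 (69.3, 22 and 109.7 CPM, against 25.5, 5.55 and 47.4 CPM at most in the other 2), the library with the steep GC slope.

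The widest culture differences were those of NTHL1, at 3.05, 1.79 and 2.71 CPM in the Control, 1.1, 1.57 and 1.17 CPM in the Palbociclib and 0.899, 0.92 and 1.43 CPM in the combination cultures (-0.99 ± 0.47 and -1.22 ± 0.48 on the log2 scale, adjusted p = 0.795 and 0.681). POLD1 in combination cultures was at 3.59, 4.41 and 3.77 CPM against 10.4, 3.58 and 11 CPM in Control (-1.08 ± 0.53, adjusted p = 0.681), and the groups overlapped. Here too the fold changes went with GC content, with Pearson correlations over the 36 genes of -0.85 in Palbociclib, 0.67 in Telaglenastat and -0.75 in combination cultures, and -0.25, 0.52 and -0.16 after correction. Corrected log2 fold changes of all 36 genes lay between -0.77 and 0.43 over the 3 comparisons.

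Control cultures differed from Control tumors at most of these genes. As counted, 17 were higher in culture and 6 lower, against 22.8% higher and 23.1% lower of all 15466 genes tested, and after correction 20 were higher and 2 lower (22.7% and 17.8%). Higher as counted and corrected were 15 genes, and PARP3 and POLD4 were lower in both. As counted, all 6 lower genes were in the upper 18 of GC content and 16 of the 17 higher genes in the lower 18 (Pearson correlation -0.84 over the 36 genes, -0.56 after correction). The replicative genes had a median of 0.89 as counted and 0.77 corrected, the base excision repair genes 0.19 and 0.43.

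POLE2 was at 45.3, 44.9 and 35 CPM in the Control cultures against 12.7, 12.9 and 15.2 CPM in the Control tumors. All 3 cultures lay above all 3 tumors for this subunit (1.62 ± 0.22, adjusted p = 9.92e-07, and 1.27 ± 0.19 corrected, adjusted p = 5.75e-06). PARP2 was at 99.6, 125 and 112 CPM in the Control cultures against 39.4, 41.8 and 41.8 CPM in the Control tumors, and PRIM1 was at 99.4, 98.2 and 92.9 CPM in the Control cultures against 34.9, 39.5 and 35.3 CPM in the Control tumors, also without overlap. They differed by 1.45 ± 0.14 and 1.41 ± 0.16 on the log2 scale (adjusted p = 5.49e-09 and 8.47e-08), and by 1.19 ± 0.12 and 1.08 ± 0.13 corrected. The other replicative genes higher in both fits were POLA1 (1.22 ± 0.15, adjusted p = 2.21e-07), PCNA (1.00 ± 0.19, adjusted p = 1.26e-04), POLE3 (0.92 ± 0.16, adjusted p = 2.52e-05), POLD3 (0.91 ± 0.16, adjusted p = 3.25e-05) and POLA2 (0.89 ± 0.19, adjusted p = 4.15e-04). Of base excision repair they were NEIL3 (1.06 ± 0.18, adjusted p = 1.93e-05), TDG (1.05 ± 0.15, adjusted p = 2.36e-06), UNG (0.96 ± 0.11, adjusted p = 1.37e-07), MBD4 (0.91 ± 0.13, adjusted p = 2.51e-06), PARP1 (0.61 ± 0.11, adjusted p = 5.71e-05), APTX (0.59 ± 0.11, adjusted p = 6.36e-05) and LIG3 (0.59 ± 0.12, adjusted p = 3.64e-04).

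Lower in culture was the small polymerase delta subunit POLD4, at 2.03, 1.92 and 4.99 CPM in the cultures and 11.3, 8.86 and 13.1 CPM in the tumors (-1.90 ± 0.37, adjusted p = 1.24e-04, and -1.22 ± 0.36 corrected, adjusted p = 0.0074). PARP3 followed, at 9.92, 5.12 and 5.98 and 19.5, 24.7 and 27 CPM (-1.75 ± 0.24, adjusted p = 1.42e-06, and -1.21 ± 0.22 corrected, adjusted p = 5.97e-05). Lower only as counted were NEIL1 (-0.82 ± 0.29, adjusted p = 0.0213), MPG (-1.35 ± 0.47, adjusted p = 0.0191), XRCC1 (-0.82 ± 0.30, adjusted p = 0.0258) and POLL (-0.86 ± 0.25, adjusted p = 0.00693). Higher only after correction were OGG1 (0.70 ± 0.26, adjusted p = 0.0345), MUTYH (0.70 ± 0.25, adjusted p = 0.0239), SMUG1 (0.77 ± 0.17, adjusted p = 4.76e-04), FEN1 (0.76 ± 0.19, adjusted p = 0.0018) and POLE (1.04 ± 0.12, adjusted p = 6.89e-08). POLB and TDP1 were higher only as counted, and NTHL1, NEIL2, APEX1, APEX2, LIG1, POLD1, POLD2 and POLE4 were called in neither fit. Of the 10 proliferation markers 8 were higher as counted and 10 after correction, and all 8 stroma, endothelium and leukocyte markers tested were below 0, 7 of them lower.

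Some calls of this comparison ended when a library was left out. MPG lost its call without Control culture 2 at an adjusted p of 0.0845, Control culture 3 at an adjusted p of 0.0846 and Control tumor 3 at an adjusted p of 0.0626. XRCC1 lost it without Control culture 1 at an adjusted p of 0.0808, Control culture 2 at an adjusted p of 0.141 and Control tumor 2 at an adjusted p of 0.129. NEIL1 was no longer called without Control culture 2 at an adjusted p of 0.12 and Control tumor 1 at an adjusted p of 0.128, nor POLL without Control culture 2 at an adjusted p of 0.0535. Without Control culture 2, the number lower was 2 in place of 6. The call of TDP1 was lost in 14 of 28 fits (adjusted p 0.0501 to 0.177).

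**Figure D4:**
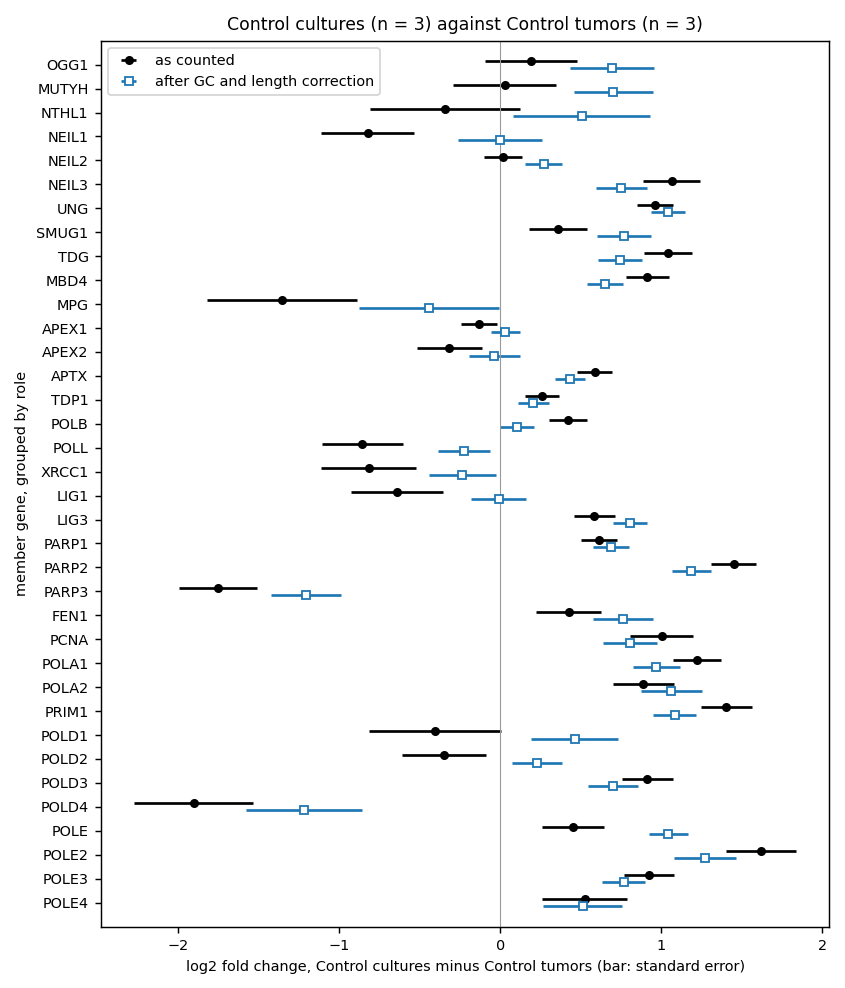
Log2 fold change of each of the 36 genes (rows, by role) in Control cultures (n = 3) against Control tumors (n = 3), as counted (filled circles) and after GC and length correction (open squares). Bars are standard errors. POLE2, PARP2 and PRIM1 lie farthest to the right and POLD4 and PARP3 farthest to the left.

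Whether a drug's difference from Control was the same in culture as in the tumors was tested as the difference of both fold changes. For Palbociclib 0 genes had a lower and 3 a higher value in culture (0.356% and 1.03% of all genes tested), NEIL3 (1.16 ± 0.24, adjusted p = 0.00928), PRIM1 (1.07 ± 0.21, adjusted p = 0.0085) and POLD3 (0.81 ± 0.21, adjusted p = 0.0496). NEIL3 and PRIM1 were also called after correction, when 0 members were lower and 2 higher (0.323% and 0.711% of all genes tested). NEIL3 thus fell by 1.05 on the log2 scale in Palbociclib tumors and stood at 0.10 ± 0.13 in the cultures. DESeq2 called 6 members where edgeR called these 3.

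For Telaglenastat 5 genes had a lower and 11 a higher value in culture as counted (15.6% and 18.5% of all genes tested), led by POLD1 (2.73 ± 0.59, adjusted p = 0.00127), and 10 of the 11 were in the upper 18 of GC content. After correction POLD2 alone was called (0.87 ± 0.22, adjusted p = 0.0221), as 1 higher and 0 lower (2.55% and 1.23% of all genes tested). For the combination NEIL3 (0.91 ± 0.25, adjusted p = 0.0412) and LIG1 (1.53 ± 0.40, adjusted p = 0.0378) were higher and 0 lower as counted (0.795% and 2.11% of all genes tested). After correction PRIM1 was added (0.90 ± 0.19, adjusted p = 0.00751), for 3 higher and 0 lower (1.26% and 1.38%). Left-out libraries ended the combination calls of NEIL3 in 16 of 28 fits (adjusted p 0.0512 to 0.106) and of LIG1 in 10 (adjusted p 0.0551 to 0.135), and the Palbociclib calls of POLD3 in 20 (adjusted p 0.0524 to 0.212) and of NEIL3 without Control culture 3 (adjusted p = 0.0526). Of the Telaglenastat calls, APEX1 was lost in 9 fits, POLD4 in 7, MUTYH in 6 and POLD3 in 4 (adjusted p up to 0.139, 0.121, 0.183 and 0.116). TDG was lost without Control culture 2 (adjusted p = 0.0547), NTHL1 without Telaglenastat culture 2 (adjusted p = 0.0629), MPG without Telaglenastat culture 2 (adjusted p = 0.0618) and POLL without Telaglenastat culture 2 (adjusted p = 0.0868). Without Telaglenastat culture 2 the Telaglenastat count was 5 lower and 5 higher, and the combination count 5. The lower count was 10 without Telaglenastat culture 3 and 3 without Control culture 2.

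Other genes of these pathways were counted from lists written with earlier results of these data known. The shares of all genes tested that were called lower and higher, against which these counts stand, were 3.6% and 2.55% in Palbociclib, 28.5% and 22.6% in Telaglenastat and 26.9% and 17.6% in combination tumors as counted. After correction they were 4.03% and 3.83%, 7.57% and 5.58%, and 13.1% and 13%. Of 28 further replication fork genes (helicase, clamp loader and origin firing factors), Palbociclib tumors had 11 lower and 0 higher as counted (median -0.37) and 11 lower and 0 higher corrected (median -0.32). Telaglenastat tumors had 8 lower and 10 higher as counted (median 0.14, mean -0.09) and 2 lower and 0 higher corrected (median -0.02), and combination tumors 14 lower and 1 higher as counted (median -0.33) and 17 lower and 0 higher corrected (median -0.39). Of 12 further base excision repair genes, Palbociclib tumors had 1 lower and 0 higher as counted (median -0.22) and 2 lower and 0 higher corrected (median -0.20). In Telaglenastat tumors these were 4 lower and 5 higher as counted (median 0.24, mean -0.16) and 0 lower and 0 higher corrected (median -0.00118), and in combination tumors 4 lower and 2 higher as counted (median -0.08) and 3 lower and 0 higher corrected (median -0.21). The 9 genes of translesion and other repair polymerases had 0 lower and 0 higher as counted (median -0.26) and 1 lower and 0 higher corrected (median -0.20) in the Palbociclib tumors. They had 2 lower and 5 higher as counted (median 0.36, mean -0.02) and 1 lower and 0 higher corrected (median 0.04, mean -0.01) in the Telaglenastat tumors and 2 lower and 0 higher as counted (median -0.07) and 2 lower and 0 higher corrected (median -0.31) in the combination tumors. In Control cultures, 22 of the 28 fork genes were higher than in Control tumors and 0 lower (median 0.83), against 22.8% and 23.1% of all genes tested.

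Some counts may hold reads of other genes, since the sources do not say whether reads were counted by strand. Tumor counts may also hold mouse reads that align to human genes, which was not tested. In GENCODE 29 the share of exon bases that an antisense gene overlaps was 30.5% for LIG3, 30.5% for NEIL1, 29% for OGG1 and 27.3% for MPG, whose partner is NPRL3. Genes on the same strand overlapped 35.1% of the exon bases of POLA2, 21.3% of POLD4 and 16.2% of PRIM1, the last with NACA and AC117378.1 together. PCNA has 3 named pseudogenes, and UNG and PARP1 have 2 each. NTHL1 and MPG rest on few reads, with as few as 16 and 30 counts in a Control tumor. Counts of both were lower still in every Telaglenastat and combination tumor, so their large log2 fold changes rest on very few reads. POLD1, with 84 counts or more in each Control tumor, also had few reads in the Telaglenastat and combination tumors.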

How the data were processed

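Poly(A) RNA of 16 tumors and 12 cultures was made into strand-marked libraries and read as 60-base single ends by the authors, who called bases with CASAVA 1.8, aligned to the Ensembl genome (hg38 per the submitters' processing notes) with STAR and tallied the reads of each gene. What was deposited are raw counts. The annotation release and the strand setting of the counting are not given in the sources used here. The authors tested genes with DESeq2.

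Groups came from the sample labels. Tumors had a fit of their own and so had cultures, in edgeR 4.0.16 under R 4.3.3 (TMM scaling, filterByExpr with a minimum count of 10, glmQLFit and glmQLFTest), as group means, which left 14848 and 13985 genes. A joint fit of all 28 libraries (15466 genes) gave Control cultures against Control tumors and the differences of drug effects. The standard error was taken from the log2 fold change and its F statistic. The correction fitted, per library, natural splines of 4 degrees of freedom in GC content and log exon length by rlm (MASS 7.3.60.0.1) and entered the trend as an offset. Exons and GC content came from GENCODE 29 on GRCh38, which held 57940 of 58278 gene IDs and all 36 members. Alternatives were DESeq2 1.42.0, its size factors, no filter, the replicate block (number nested in tumors and cultures, and centred on the Control libraries), fits of the compared groups and leaving out each library. No library pair within a group agreed within sampling noise (chi-square per degree of freedom 3.90 to 41.9). The script was tested on simulated data.

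The members and gene lists were chosen with earlier results of these data known. All members are accounted for by role, and each library's value is given for called members whose groups do not overlap, up to 5 per drug comparison with the largest log2 fold change, and for a few more. The errors given are those between libraries, sampling of reads included.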

Additional observations from a re-analysis of the deposited data

Results flagged for a closer look

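In the tumor groups of 4 and 5 libraries, 9 of 108 sets of values (36 genes in 3 groups) held a library far from the rest of its group by Dixon's criterion, which chance alone gives in about 1 in 20 groups. They were LIG1 in Palbociclib tumor 2 (23.5 CPM, the others 32.7 to 36 CPM), POLD2 in Palbociclib tumor 2 (39.5 CPM, the others 64.8 to 70.1 CPM), POLD4 in Palbociclib tumor 1 (16.2 CPM, the others 7.96 to 9.48 CPM), POLE in Palbociclib tumor 2 (44.4 CPM, the others 64.1 to 68.1 CPM), SMUG1 in Telaglenastat tumor 1 (10.7 CPM, the others 14.1 to 14.6 CPM), MBD4 in Telaglenastat tumor 2 (26.8 CPM, the others 31.8 to 32.7 CPM), XRCC1 in Telaglenastat tumor 2 (12.6 CPM, the others 8.11 to 8.46 CPM), MPG in combination tumor 2 (0.45 CPM, the others 1.15 to 1.26 CPM) and PARP1 in combination tumor 1 (208 CPM, the others 181 to 185 CPM). LIG1, POLD2 and POLE were low in the same library, Palbociclib tumor 2, whose GC slope was 0.0959 against 0.318 to 0.366 in the other 4.

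By edgeR's test of the difference, the Palbociclib effect was lower in cultures than in tumors for 0.356% of all genes and higher for 1.03%. The shares were 15.6% and 18.5% for Telaglenastat and 2.11% and 0.795% for the combination. Among the 36 genes the drug effect differed for 21 gene and drug pairs. For Palbociclib they were NEIL3 (1.16 ± 0.24, adjusted p = 0.00928), POLD3 (0.81 ± 0.21, adjusted p = 0.0496) and PRIM1 (1.07 ± 0.21, adjusted p = 0.0085). For Telaglenastat they were MUTYH (1.24 ± 0.44, adjusted p = 0.0309), NTHL1 (2.23 ± 0.67, adjusted p = 0.0118), TDG (-0.68 ± 0.20, adjusted p = 0.0117), MBD4 (-0.81 ± 0.18, adjusted p = 0.00135), MPG (2.13 ± 0.66, adjusted p = 0.0144), APEX1 (0.41 ± 0.15, adjusted p = 0.0393), APEX2 (1.25 ± 0.28, adjusted p = 0.00157), XRCC1 (1.55 ± 0.41, adjusted p = 0.00529), LIG1 (1.8 ± 0.40, adjusted p = 0.00142), POLL (1.23 ± 0.35, adjusted p = 0.00823), PARP2 (-0.86 ± 0.19, adjusted p = 0.00149), POLA1 (-0.84 ± 0.20, adjusted p = 0.00267), POLD1 (2.73 ± 0.59, adjusted p = 0.00127), POLD2 (1.97 ± 0.37, adjusted p = 3.81e-04), POLD3 (-0.62 ± 0.22, adjusted p = 0.0276) and POLD4 (1.35 ± 0.50, adjusted p = 0.0363). For the combination they were NEIL3 (0.91 ± 0.25, adjusted p = 0.0412) and LIG1 (1.53 ± 0.40, adjusted p = 0.0378). After GC and length correction NEIL3 and PRIM1 for Palbociclib, POLD2 for Telaglenastat, and NEIL3 and LIG1 for the combination were still called. The corrected shares of all genes, lower and higher, were 0.323% and 0.711%, 1.23% and 2.55%, and 1.38% and 1.26% in the same order.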

How the results depend on the processing

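The number of members called kept within 1.5 times its value with DESeq2, DESeq2's size factors, no filter and only the groups compared, except for the differences between culture and tumor effects, where Palbociclib went from 3 to 6 with DESeq2 and 6 without a filter and the combination from 2 to 5 and 8. GC and length correction moved Telaglenastat against Control in tumors from 21 to 7, combination against Palbociclib from 27 to 7 and the Telaglenastat effect in cultures minus tumors from 16 to 1. Libraries of different groups share only a replicate number: deviations of same-numbered libraries correlated between -0.13 and 0.09 in tumors and -0.42 and 0.14 in cultures. With the replicate number as a block, the combination effect in cultures minus tumors had 0 calls (2 without), and the block alone moved no other count past that limit. Block and correction together gave 5 for Telaglenastat and 4 for combination against Palbociclib in tumors and 0 for the Telaglenastat difference of effects. Leaving out 1 library gave 8 to 10 calls for Palbociclib, 19 to 22 for Telaglenastat and 19 to 25 for the combination in tumors, 23 to 28 and 10 to 15 for the combination against Palbociclib and Telaglenastat, and 0 in each culture comparison. It gave 19 to 26 for Control cultures against Control tumors and 1 to 6, 10 to 20 and 0 to 5 for the differences of effects of Palbociclib, Telaglenastat and the combination. The Palbociclib difference had 1 call without Control culture 3 and 6 without Telaglenastat culture 1 or 3, and the Telaglenastat difference 10 without Telaglenastat culture 2. The combination difference had 0 without any of Control cultures 1 and 2, combination cultures 1 to 3, Control tumors 1 to 3 and combination tumor 2. It had 1 without any of Control culture 3, Palbociclib cultures 1 to 3, Telaglenastat tumor 2 and combination tumors 1, 3 and 4, and 5 without Telaglenastat culture 2. Log2 fold changes of called members turned sign only with the correction, namely MUTYH in Telaglenastat against Control 0.12 (0.12 with the block), PARP3 in Telaglenastat against Control 0.16 (0.17 with the block), POLD4 in Telaglenastat against Control 0.22 (0.33 with the block), PARP3 in combination against Control 0.22 (0.24 with the block), POLD4 in combination against Control 0.0253 (0.16 with the block), FEN1 in combination against Palbociclib 0.074 (0.0681 with the block), POLD4 in combination against Palbociclib 0.14 (0.0901 with the block) and NEIL1 in Control cultures against Control tumors 0.00129. The cause of these changes was not tested.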
